A study of Mus musculus with 4 samples.

Results

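The cytosolic ribosomal protein genes encode the proteins of the ribosome that works in the cytoplasm. They were taken as the spots whose single gene symbol starts with Rpl or Rps followed by a number, or is Rplp0, Rplp1, Rplp2 or Rpsa, leaving out the Rps6k kinase genes, pseudogenes and symbols holding -ps. Of 14386 genes with a named spot, 70 met this rule, on 148 of 32064 spots. By name, 45 encode proteins of the large subunit or its stalk and 23 encode proteins of the small subunit. The remaining 2, Rps19bp1 and Rps23rg1, met the pattern of letters but are not ribosomal proteins by name, and they were kept as the rule has them. A table of RefSeq genes for GRCm38.p6 holds 89 protein-coding symbols of this form, and 19 of those are not analysed here.

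The cells were CGR8, an established line of mouse embryonic stem cells. Total RNA of day 3 embryoid bodies, cell aggregates formed in hanging drops, was hybridised with RNA of undifferentiated day 0 material on 2 arrays with 2 channels each, and 2 further arrays paired day 10 embryoid bodies with day 0. The labels give no genotype change and no treatment, and all values come from this 1 line. In each pair 1 array is a technical replicate per its title, so a day rests on 1 RNA pair. The SD given throughout is that of 2 technical arrays, and that of a difference between days combines the SDs of both days. No test and no p-value is given.

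Ribosomal proteins bind ribosomal RNA in fixed amounts, and a cell needs nearly equal numbers of almost all of them. Their mRNAs are among the most abundant of a growing cell, and most start with a run of pyrimidines, the 5′ terminal oligopyrimidine tract, through which mTOR signalling sets their translation. Ribosome production is known to change as embryonic stem cells leave the undifferentiated state.

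The values are deposited log2 ratios of the channels, centred here on the median named spot of each array and averaged over the spots of a gene. No dye and no numerator channel is given in the sources used here. "Positive side" and "negative side" therefore name the deposited sign only, and leave unsaid which day was higher. Which side stands for more RNA could differ between the day 3 and day 10 arrays. Differences between days take the sign as common to all arrays and the day 0 RNA as the same on all arrays, neither of which the labels state. A gene was called beyond 2-fold when both arrays of a day stood at or beyond 1 on the same side. A call between days needed this of all 4 differences that can be formed from the arrays of both days. Values of single ribosomal protein genes are uncertain where their spots share sequence with the many processed pseudogenes of this family. In bulk RNA, fewer cells of a type and less RNA per cell cannot be told apart.

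Of 46128 spots per array, between 37471 and 41386 carried a value. Among the ribosomal protein spots, 139 and 143 of 148 did so at day 3, and 135 and 139 at day 10. Of the 70 genes, 68 had a value on both day 3 arrays, 67 on both day 10 arrays and 65 on all 4. Rpl37 and Rpl41 lacked a value on 1 day 3 array, and Rpl14, Rpl22 and Rps23rg1 on 1 day 10 array. Of markers of undifferentiated stem cells, 9 of 10 on the array were measured at day 3 and all 9 stood on the negative side on both arrays, with Dppa5a at -2.70 ± 0.04 and Pou5f1 at -0.88 ± 0.15. At day 10, 3 of 8 were negative on both arrays, 2 positive and 3 mixed, and Fgf4 was called positive at 1.28 ± 0.38. Of germ layer markers 1 of 10 measured, the mesoderm gene Mesp1, was called at day 3, at 1.97 ± 0.10, while 6 stood on the negative and 3 on the positive side on both arrays, with a median of -0.13. Of 5 fibroblast and leukocyte markers none was called at either day, with medians of 0.01 and -0.23.

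The DNA around the start of these genes carries 2 features that are known of the family, the pyrimidine run at the start and a site for factors of the Ets type. The stretches shown run from 60 bases before to 20 bases after the RefSeq start (GRCm38.p6), 5′ to 3′ on the gene's strand. The first 5 belong to genes far on the positive side at day 3, and the last 5 to genes near 0 or on the negative side there. They are examples and not the 5 highest and 5 lowest genes. Rpl36al, at 2.34 and with no marked letters in its stretch, is not shown, and neither is Rps27l, the lowest at -1.57. Capitals mark CCGGAAG and GGGCGG on either strand and the pyrimidine run, a C followed by at least 5 C or T. They lie at chr3:28805448-28805527 (plus strand, Rpl22l1), chr10:23787190-23787269 (minus strand, Rps12), chr4:86857348-86857427 (minus strand, Rps6), chr7:141447591-141447670 (plus strand, Rplp2) and chr11:68901506-68901585 (plus strand, Rpl26). Those of the second set lie at chr5:115559407-115559486 (plus strand, Rplp0), chr2:180257319-180257398 (plus strand, Rps21), chr17:27635225-27635304 (minus strand, Rps10), chr8:123102290-123102369 (plus strand, Rpl13) and chr9:120571457-120571536 (plus strand, Rpl14).
Rpl22l1: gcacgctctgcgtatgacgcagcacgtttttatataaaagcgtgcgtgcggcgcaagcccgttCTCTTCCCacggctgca
Rps12: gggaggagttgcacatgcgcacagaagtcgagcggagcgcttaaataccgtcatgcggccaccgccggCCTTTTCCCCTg
Rps6: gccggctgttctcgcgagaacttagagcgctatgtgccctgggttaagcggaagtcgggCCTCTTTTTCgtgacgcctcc
Rplp2: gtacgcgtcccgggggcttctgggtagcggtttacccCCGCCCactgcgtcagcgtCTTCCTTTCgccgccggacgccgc
Rpl26: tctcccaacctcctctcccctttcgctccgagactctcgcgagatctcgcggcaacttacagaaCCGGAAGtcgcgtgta
Rplp0: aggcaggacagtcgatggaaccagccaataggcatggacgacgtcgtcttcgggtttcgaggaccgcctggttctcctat
Rps21: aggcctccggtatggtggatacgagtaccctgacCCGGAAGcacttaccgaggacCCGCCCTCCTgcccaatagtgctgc
Rps10: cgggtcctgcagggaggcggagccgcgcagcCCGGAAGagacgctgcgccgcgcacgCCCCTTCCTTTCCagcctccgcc
Rpl13: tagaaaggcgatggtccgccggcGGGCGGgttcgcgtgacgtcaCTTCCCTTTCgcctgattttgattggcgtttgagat
Rpl14: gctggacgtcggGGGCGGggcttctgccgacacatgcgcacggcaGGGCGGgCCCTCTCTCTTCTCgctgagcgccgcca

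The RefSeq promoter table matched 59 of the 70 genes by symbol. A pyrimidine run that began within 20 bases of the start, on the transcript's strand, stood in 37 of the 59 (62.7%), against 35.7% of 17491 coding genes and 31.9% of all 32851 windows. The run stood in 17 of 27 genes called at day 3 (63.0%) and in 20 of 30 not called (66.7%). The printed stretches of Rps6, which was called, and of Rps10, which was not, both hold it. The letters CCGGAAG, searched on both strands from 250 bases before to 50 after the start, stood in 24 of 59 genes (40.7%), against 12.9% of coding genes and 8.86% of windows. They were in 10 of 27 called genes (37.0%) and 12 of 30 not called (40.0%). GGGCGG, the letters of an Sp1 site, stood in 36 of 59 (61.0%), against 49.2% of coding genes and 35.7% of windows. AAGATGGC, the letters of a Yy1 site, stood in 4 (6.78%), against 3.57% and 2.75%. None of these 3 words holds another, while a pyrimidine run can overlap CCGCCC, the reverse complement of GGGCGG. A match of letters is a description of the window and not a site.

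At day 3 the ribosomal protein genes stood on the positive side. Of 68 genes measured, 30 (44.1%) were called there and 0 on the negative side, against 1.82% of 13707 genes called positive and 0.978% called negative over the whole array. Their median log2 ratio was 0.79, with 0.70 on the first array and 0.97 on the second, against 0.01 for all genes. The genes did not move as 1 block: 45 were positive on both arrays, 14 negative on both and 9 mixed, and the quartiles were -0.08 and 1.77. They made up 12% of the 250 genes called on the positive side.

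**Figure D1:**
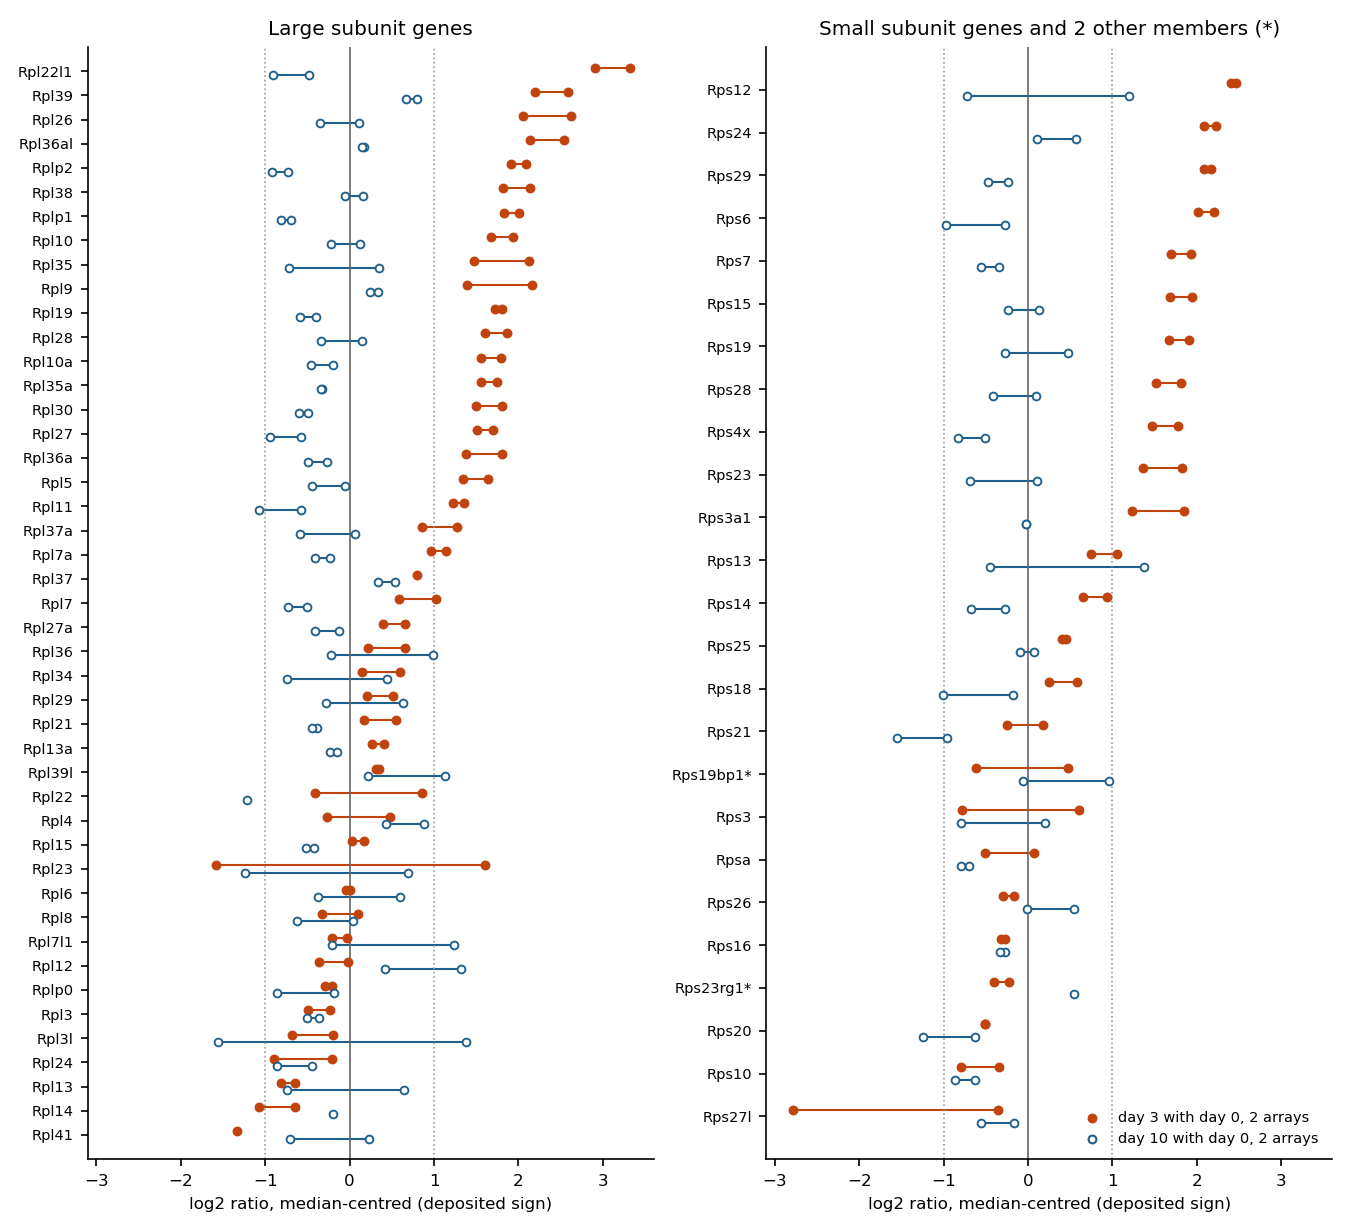
Log2 ratio of each ribosomal protein gene on each of the 4 arrays (day 3 and day 10 embryoid bodies with day 0), with large and small subunit genes set apart, dotted lines at 2-fold, and an asterisk at Rps19bp1 and Rps23rg1. The day 3 points of 30 genes lie at or above the upper line on both arrays, and no gene lies beyond the same line on both day 10 arrays.

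The genes farthest on the positive side at day 3 came from both subunits. Rpl22l1, which encodes a paralogue of the large subunit protein Rpl22, had 3.32 and 2.90 on the 2 day 3 arrays, a mean of 3.11 ± 0.29 or 8.65-fold. It was -0.90 and -0.48 on the day 10 arrays, so the days did not overlap. Rps12 of the small subunit had 2.46 and 2.40 at day 3 (mean 2.43 ± 0.04), but 1.19 and -0.72 at day 10, on opposite sides of 0. Rpl39, a small protein that lines the exit tunnel of the large subunit, had 2.20 and 2.59 (2.40 ± 0.28), and it stayed positive at day 10 with 0.79 and 0.67.

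Rpl26, a protein near the end of that tunnel, had 2.05 and 2.63 at day 3 (2.34 ± 0.40) and -0.35 and 0.11 at day 10. Rps24, one of the genes mutated in Diamond-Blackfan anaemia, had 2.08 and 2.23 (2.16 ± 0.11) and then 0.10 and 0.56. Rps29 had 2.09 and 2.17 (2.13 ± 0.06) and then -0.47 and -0.23. In each of these 3 genes both day 3 arrays lay above both day 10 arrays. This held for 43 of 65 ribosomal protein genes and for 2791 of 12654 genes over the whole array. The 3 genes were named for their high day 3 values, so the gap is in part how they were picked. Rps6, the ribosomal protein phosphorylated by S6 kinase, had 2.01 and 2.20 (2.11 ± 0.13) at day 3 and -0.97 and -0.27 at day 10. Rpl10, which joins the large subunit late in its assembly, had 1.68 and 1.93 (1.81 ± 0.18) and then 0.12 and -0.22, again with no overlap between days.

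The stalk of the large subunit, which recruits translation factors, showed unlike values among its own proteins. Rplp1 had 1.82 and 2.01 at day 3 (1.92 ± 0.13) and -0.81 and -0.69 at day 10. Rplp2 had 1.92 and 2.08 (2.0 ± 0.12) and then -0.74 and -0.92. Rplp0, the protein that anchors them, had -0.29 and -0.20 (-0.25 ± 0.06) at day 3 and -0.19 and -0.85 at day 10, over 4 spots that lay on both sides of 0. Rplp1 and Rplp2 stood beyond 2-fold on both day 3 arrays, and no single spot of Rplp0 did so on either. Rpl12, which sits at the base of the stalk, had -0.36 and -0.02 at day 3 and 0.42 and 1.32 at day 10.

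No ribosomal protein gene was called on the negative side at day 3. The lowest mean was that of Rps27l, a paralogue of Rps27 known as a p53 target, at -1.57 ± 1.72, from readings of -2.79 and -0.35. Rpl14 had -0.65 and -1.07 (-0.86 ± 0.30), and Rpl13 had -0.82 and -0.65 (-0.73 ± 0.12). The array means of Rpl14 and Rpl13 lay closer together than those of Rps27l, but their spots limit this. The spots of Rpl13 were -0.58 and -1.06 on the first array, then -1.37 and 0.07. Rpl14 had a value in only 1 spot on the first array, and Rps27l in only 1 spot on each. Rps10 had -0.79 and -0.34 (-0.57 ± 0.32), Rpl24 of the bridge between subunits -0.89 and -0.21 (-0.55 ± 0.48), and Rps20 -0.51 on both.

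Further called genes, given by name after their values were seen except for Rpl27, had means below 2. Rpl38, whose loss in mice disturbs the patterning of the skeleton, had 1.82 and 2.14 at day 3 (1.98 ± 0.23) and 0.16 and -0.05 at day 10. Rps19, the gene most often mutated in Diamond-Blackfan anaemia, had 1.67 and 1.91 (1.79 ± 0.17) and then -0.27 and 0.47. Rpl19 had 1.8 and 1.73 (1.76 ± 0.05), and Rps7 1.7 and 1.93. For these 4 genes the lowest day 3 array stood above the highest day 10 array. Rpl27 had 1.7 and 1.51 at day 3 and -0.95 and -0.58 at day 10. Rps15, Rpl35, Rpl9, Rpl28, Rpl10a, Rps28, Rpl30, Rps4x and Rps23 were called as well, with means between 1.59 ± 0.33 (Rps23) and 1.81 ± 0.19 (Rps15). The arrays were on opposite sides for 2 well-known members: Rpl23, another binder of Mdm2, had 1.61 and -1.58 at day 3, and Rps3, also a DNA repair enzyme, 0.61 and -0.78.

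The genes of the family are scattered over the genome. The 70 genes lie on 18 chromosomes and those called at day 3 on 15. All 4 on the X chromosome, Rpl10, Rpl36a, Rpl39 and Rps4x, were called, as were all 3 on chromosome 12 and the 1 on chromosome 13. On the other side, 0 of 2 were called on chromosome 1, 0 of 2 on chromosome 8 and 0 of 1 on chromosome 18. On chromosome 9 it was 1 of 7. The share of all genes called on each chromosome is not given here, so no pattern by chromosome is read from these counts. Over all chromosomes 30 of 68 measured ribosomal protein genes were called.

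Near the limit, the lower of the 2 day 3 arrays was 1.22 for Rpl11, 1.23 for Rps3a1 and 1.35 for Rpl5 just inside. It was 0.97 for Rpl7a, 0.85 for Rpl37a and 0.75 for Rps13 just outside. Rpl5 and Rpl11, whose proteins together bind Mdm2 when ribosome assembly fails, were both called, with means of 1.49 ± 0.21 and 1.29 ± 0.10. Rps19bp1, which is no ribosomal protein, had 0.47 and -0.62.

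In the 4 genes with 4 spots, the spots stand for 2 probe sequences of 2 spots each, and at day 3 these sequences disagreed in 3 of the genes. Rpl35a was called with 1.56 and 1.74, but its first sequence had 2.29 and 2.57 on the first array and 2.61 and 2.48 on the second, and its other sequence 0.66 and 0.70, then 0.88 and 1.0. Rps18, of the head of the small subunit, was not called with 0.58 and 0.24, although its first sequence stood at 1.25 and 1.16, then 1.17 and 1.32. The other sequence of Rps18 had -0.67 in its 1 spot with a value on the first array, then -0.76 and -0.75. Rpsa, the laminin receptor gene, had means of -0.51 and 0.07 from sequences on opposite sides. Its first sequence had 0.84 in 1 spot, then 1.29 and 1.62, and the other -1.11 and -1.26, then -1.28 and -1.36.

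The call of Rpl35a and the missing calls of Rps18 and Rpsa thus came from averages over sequences with unlike values. With the spot of smallest array difference, the day 3 values were 2.53 for Rpl35a, 1.21 for Rps18, -1.31 for Rpsa and 0.08 for Rplp0. The spots of Rplp0 changed sides between the arrays, with 0.19, -0.84 and -0.22 on the first and -0.92, 0.49, 0.38 and -0.76 on the second. At day 10 Rpsa had means of -0.70 and -0.79, and there too its second sequence was the lower, from -1.2 to -1.62.

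The pairs of paralogues on the array differed in which form stood on the positive side at day 3. Rpl22l1 was called, whereas Rpl22 had -0.41 and 0.85. In the pair Rpl36a and Rpl36al both were called, at 1.38 and 1.8 and at 2.14 and 2.53. Rpl39 was called while Rpl39l, its testis form, had 0.35 and 0.31. Rpl3, near the site of peptide bond formation, had -0.23 and -0.49, and the muscle form Rpl3l had -0.68 and -0.20. Rpl7 had 0.58 and 1.02 and Rpl7l1 -0.03 and -0.21. In all, 2 of 6 genes whose symbols mark a paralogue were called, and their median was 0.11.

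The large and the small subunit were called at like shares at day 3. Of the large subunit, 19 of 43 genes were called, with a median of 0.80 (0.85 and 1.02 on the arrays), and 11 of 23 small subunit genes, with a median of 0.90 (0.75 and 1.05). The median of the large subunit minus that of the small was -0.10, and this difference varied by 0.09 (SD) between the arrays. It was -0.29 without the paralogue forms and Rps19bp1, and it was 0.11 over spots with values on all 4 arrays, so its sign depended on the spots used. At day 10 the difference was 0.05, with an SD of 0.06 between arrays.

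**Figure D2:**
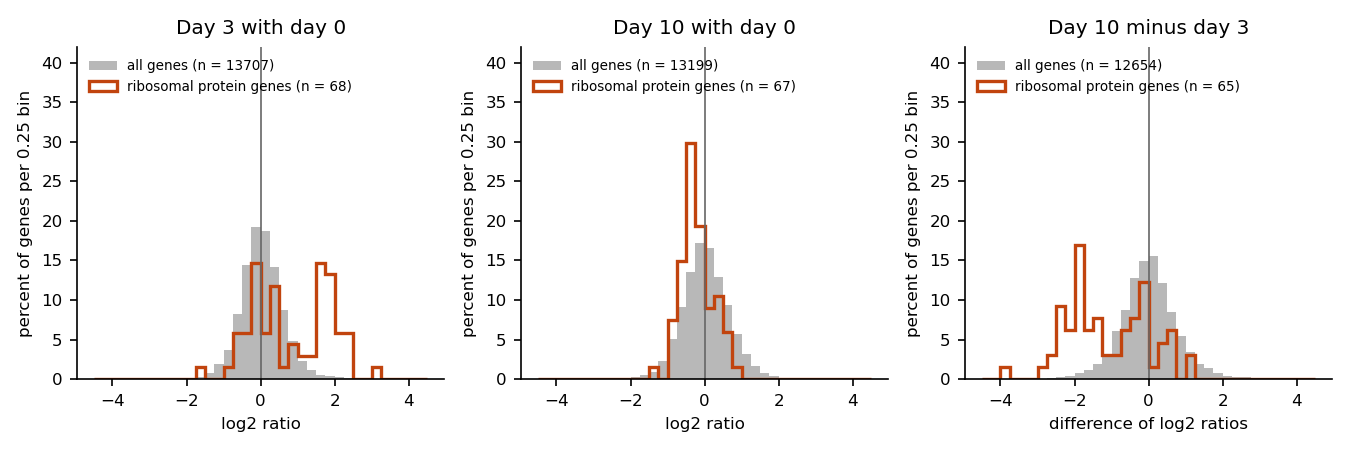
Distribution of the log2 ratios of ribosomal protein genes beside all genes measured at day 3 and day 10. At day 3 the ribosomal protein genes spread from -1.57 to 3.11 around a median of 0.79, and at day 10 from -1.26 to 0.87 around -0.27.

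The SD between the day 3 arrays had a median of 0.18 over the 30 called genes and 0.24 over the 38 not called. A call requires both arrays beyond 2-fold, so this closeness is in part how the genes were picked. Across the 68 genes Pearson r between the day 3 arrays was 0.83 (Spearman rho 0.86), against 0.27 (0.33) over all genes. Bright genes had closer arrays as a whole. Within the brightest 25% of genes, described below, r was 0.96 (0.93) for 47 ribosomal protein genes and 0.76 (0.76) for all 3471 genes. Points of such a correlation share the array, the RNA and the spot brightness. Members also have 2 or 4 spots each, and the median gap between the 2 spots of a called gene was 0.16 and 0.07 on the day 3 arrays, against 0.23 and 0.16 for those not called and 0.35 and 0.34 for genes outside the family. At day 10 r was 0.13 (rho 0.22) across 67 ribosomal protein genes, against 0.22 (0.26) over all genes. Within the brightest 25% it was 0.30 (0.42) for 47 ribosomal protein genes and 0.59 (0.61) for all 3516 genes.

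**Figure D3:**
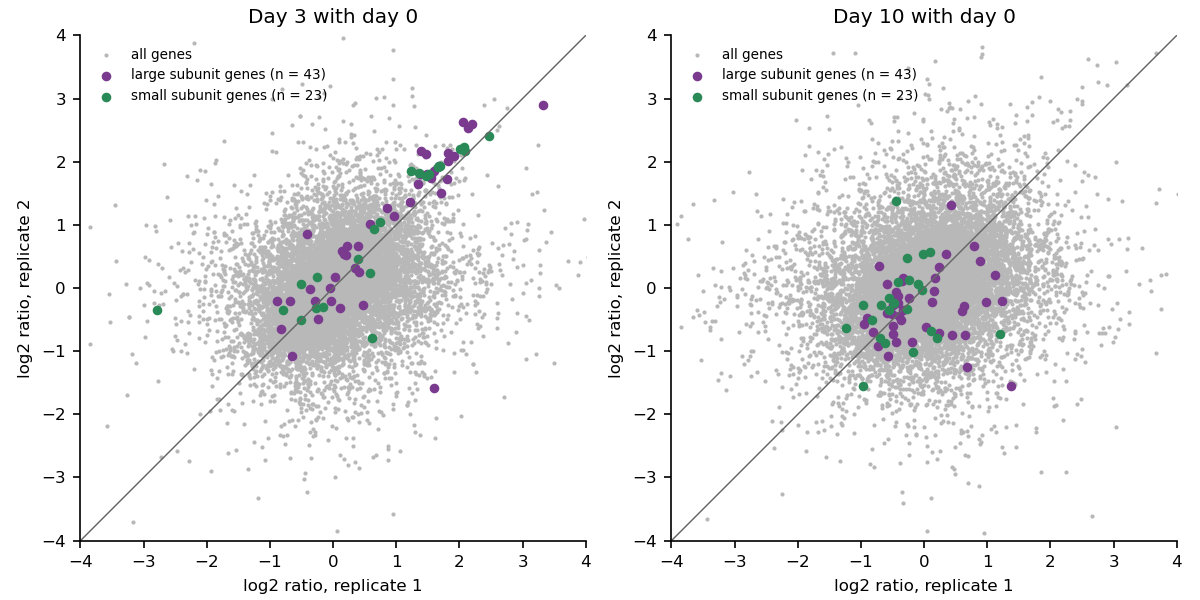
Log2 ratio on the second array of a day against the first, for ribosomal protein genes over all genes, with axes from -4 to 4. At day 3 the ribosomal protein genes run along the diagonal up to 3.32 (r = 0.83), and at day 10 they form a cloud around -0.27 (r = 0.13).

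Brightness moved with the day 3 values. Brightness was recovered from the whole numbers whose ratio gives a deposited value, and is stated as a percentile among all genes. On each array 58.4% to 60.4% of values were ratios of whole numbers up to 10000. For the other values the recovered numbers were larger, and recovery was tested only on simulated numbers below 10000. The percentiles are therefore approximate. Spearman rho between brightness and the log2 ratio across ribosomal protein genes was 0.49 (68 genes) at day 3 and 0.05 (67 genes) at day 10. The called genes had percentiles from 69.6 to 99.9 (median 89.4), and the others from 4.63 to 99.1 (median 76.2). Both quantities come from the same deposited value, and the part of brightness in the day 3 result was not tested. Within the brightest 25% of genes, 27 of 47 ribosomal protein genes were called positive at day 3, with a median of 1.59, against 2.56% of 3471 genes and a median of -0.04. They made up 30.3% of the 89 genes called there. Outside that bright set, 3 of 21 were called, with a median of -0.09. In spot order, the median of about 100 spots around each gene ran from -0.18 to 0.20 for called genes and from -0.18 to 0.13 for the others.

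**Figure D4:**
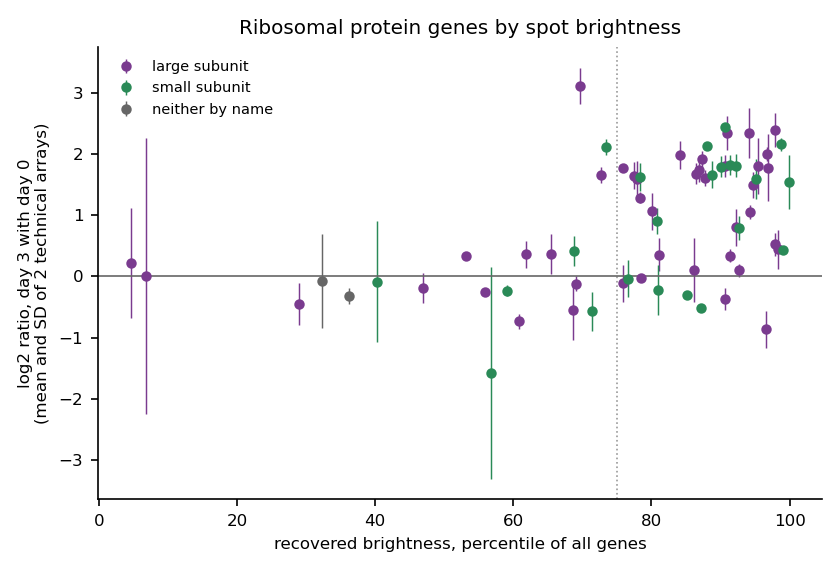
Log2 ratio at day 3 against the brightness percentile of each ribosomal protein gene. The dotted line marks the brightest 25%. At day 3 the called genes lie between percentiles 69.6 and 99.9, where uncalled ribosomal protein genes lie as well.

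At day 10 the ribosomal protein genes lay slightly on the negative side, and none was called on either side. The background was 2.36% of 13199 genes called positive and 1.29% called negative. Their median was -0.27 (-0.33 and -0.27 on the arrays), with 8 genes positive on both arrays, 33 negative on both and 26 mixed. In the brightest 25% of genes their median was -0.27 and that of all genes there -0.14. The large subunit had a median of -0.25 and the small subunit -0.30. The genes called at day 3 had a day 10 median of -0.27 (range -0.83 to 0.73), and those not called -0.28. The ratios of both days contain day 0 RNA, so these values are set side by side without a measure of their relation.

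Single genes at day 10 passed 2-fold on a given side on at most 1 array. Rps21 had -0.96 and -1.55 (mean -1.26 ± 0.42), just short of a call, and Rps20 had -1.24 and -0.63 (-0.94 ± 0.43). Rpl11 had -0.57 and -1.08. On the positive side stood Rpl12 (0.87 ± 0.63), Rpl39 (0.73 ± 0.09), Rpl39l at 1.13 and 0.21, and Rpl4, a protein of the exit tunnel, at 0.88 and 0.44. Of these 4, Rpl39 had the arrays that lay closest together. Rpl3l had 1.38 and -1.56, on opposite sides, and Rpl7l1 1.23 and -0.21.

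Between days, 32 of 65 ribosomal protein genes were called on the negative side of day 10 minus day 3, and 0 on the positive side. Over the whole array 1.69% of 12654 genes were called negative and 1.87% positive. Of the 32 genes, 30 were also called at day 3, and 2, Rpl7 and Rpl7a, were not. The same day 3 values enter both calls, so the count between days is not a separate result. The median difference was -1.32, and 15% of the 214 genes called negative were ribosomal protein genes. These values take the deposited sign as common to both days. With the sign of the day 10 arrays turned, the median was -0.80 and 21 of 65 genes were called negative and 1, Rps20, positive, against 4.72% and 4.47% of all genes. All 21 were also called with the sign as deposited, and they made up 3.52% of the 597 genes then called negative. Large subunit genes had 21 of 41 called and a median of -1.37, and small subunit genes 11 of 23 and -1.27. The difference between these medians was -0.10, with an SD of 0.11, and 0.15 with the day 10 sign turned. Within the brightest 25% of genes 29 of 46 were called, with a median of -1.72, against 2.46% of 3414 genes.

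With the sign as deposited, the difference was farthest from 0 for Rpl22l1, at -3.81 ± 0.42. Those of Rplp2 (-2.83 ± 0.18), Rps6 (-2.73 ± 0.51), Rplp1 (-2.67 ± 0.16), Rps29 (-2.48 ± 0.18) and Rpl26 (-2.46 ± 0.52) followed. For each of these 6 genes the size of the difference was over 4 times its SD. They were named for having the most negative differences, so this is in part how they were picked. The SD combines those of the technical arrays of both days and holds no spread between cultures. Rps12, second at day 3, had -2.20 ± 1.36, since its day 10 arrays lay far apart. With the day 10 sign turned the order changed: Rpl39 was farthest at -3.13, followed by Rps12 at -2.67, Rpl36al at -2.50, Rps24 at -2.49 and Rpl22l1 at -2.42. The positive differences named here, Rpl12 at 1.06 ± 0.68 and Rps27l at 1.21 ± 1.75, were not called.

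**Figure D5:**
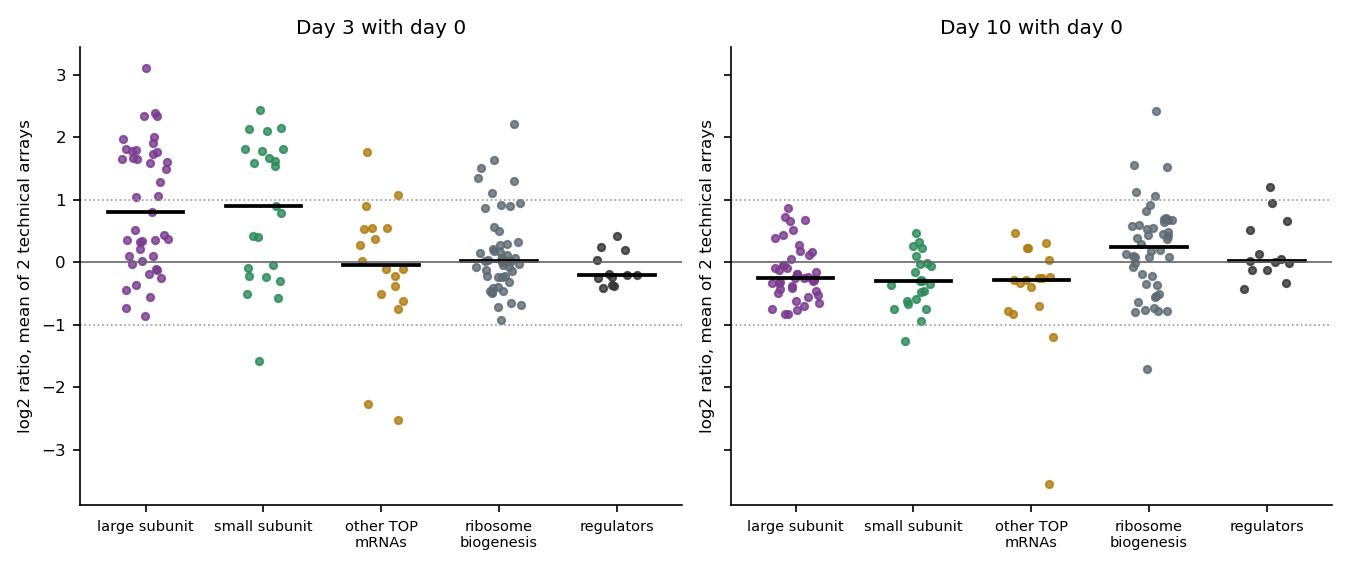
Log2 ratios at day 3 and day 10 of large subunit genes, of small subunit genes and of lists of genes with related roles. Each gene is 1 point, with a black bar at the median and dotted lines at 2-fold. At day 3 the bars of the large and small subunit genes are at 0.80 and 0.90. Those of the other mRNAs with a pyrimidine tract, ribosome biogenesis genes and regulators lie between -0.20 and 0.03.

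Genes with related roles were read from lists. Fau, which encodes a fusion of a ubiquitin-like protein with the small subunit protein eS30, was called at day 3 at 1.41 ± 0.08, and was 0.33 at day 10. Of 18 other mRNAs known to carry a pyrimidine tract, 1 was called positive at day 3 and 2 negative, with a median of -0.04. The growth-related Tpt1 stood at 1.77 ± 0.43, and the elongation factor gene Eef1a1 at -2.53 ± 0.08 and the nucleolar gene Npm1 at -2.26 ± 1.51 on the other side. At day 10 this list had 0 called positive and 1 negative of 17, with a median of -0.28.

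Of 49 measured ribosome biogenesis genes, whose products make and process ribosomal RNA, 4 were called positive and 0 negative at day 3, with a median of 0.03. They were Imp4 at 1.63 ± 0.06, Rrp9 at 1.5 ± 0.55, Nop10 at 1.35 ± 0.42 and Polr1c, of RNA polymerases I and III, at 1.30 ± 0.01. At day 10 2 of 46 were positive, the helicase gene Ddx18 and the RNA methyltransferase gene Nop2, and 1, Utp3, was negative, with a median of 0.24. Of regulators of ribosome synthesis 0 of 12 were called at day 3 and 0 of 13 at day 10, with medians of -0.20 and 0.03.

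The genes outside the family nearest to its 4 array medians were sought among 3368 bright genes with values on all arrays. By Euclidean distance over the 4 arrays the 10 nearest were Cldn11, Mnat1, Rabep1, Lsm8, Ankrd46, Cbr1, Wdr13, Dnajc22, Cys1 and Prmt2, at 0.21 to 0.29. The medians they were compared with were 0.65 and 0.93 at day 3 and -0.33 and -0.27 at day 10. Each was taken over the ribosomal protein genes with a value on that array.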

How the data were processed

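The deposited table holds 1 log2 ratio per spot and array. The base was read from the values: on each array 58.4% to 60.4% of them were ratios of whole numbers up to 10000 in base 2, at most 2.34% in base e and 3.41% in base 10. Nothing on scanner, software, dyes, background treatment or numerator is given in the sources used here.

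Spots were named by GEO's platform annotation, with 32544 carrying 1 symbol, 588 several and 12996 none. Looking symbols up by Entrez ID in RefSeq (GRCm38.p6) changed 0. The 480 spots of 5 accessions printed 96 times were left out as controls. Arrays were centred on the median named spot, and spots, then arrays, were averaged. Both the genes and the lists were chosen with earlier results of these data known.

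Genes named were the 8 highest and 8 lowest at day 3, 5 and 5 at day 10, 6 and 6 by difference, paralogue pairs, the 5 with most spots (4 genes had 4, and ties at 2 were taken in order of symbol), and Rplp0, Rplp1, Rplp2 and Rpsa. Rpl5, Rpl7a, Rpl37a, Rps3a1 and Rps13 and the other called genes, Rpl23 and Rps3 were added after their values were seen. Sequences are RefSeq's, and protein sequences were not analysed here.

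Alternatives covered centring, scale, spots used, limits, brightness, paralogue forms and each array left out. Those chosen after seeing the data were centring on all spots, the sign of the day 10 arrays turned, and counts within the brightest 25%. The steps were tested on simulated data. Python 3.11.15, numpy 2.4.6, pandas 2.3.3, scipy 1.17.1 and matplotlib 3.10.9 were used.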

Additional observations from a re-analysis of the deposited data

Results flagged for a closer look

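The median difference of ribosomal protein genes between days, day 10 minus day 3, was -1.32, with both day 3 medians on the positive side and both day 10 medians on the negative side. The difference was not tested, because each day is 1 RNA pair. The side depends on the deposited sign being the same for both days, and the median was -0.80 with the day 10 sign turned. Some of the genes named, in part chosen for their large differences, had both day 3 arrays on one side of 0 and both day 10 arrays on the other. Their differences, none of them tested, were -3.81 for Rpl22l1, -2.83 for Rplp2, -2.73 for Rps6, -2.67 for Rplp1, -2.48 for Rps29, -2.37 for Rpl27, -2.11 for Rpl11, -1.99 for Rpl35a, -1.97 for Rpl36a, -1.41 for Rpl7 and -1.01 for Rps18. Rpl12 went the other way, at 1.06 ± 0.68, and neither it nor Rps18 was called between days. The day 10 spots of Rpl12 lay apart, with -0.42 and 1.27 on the first array and 0.37 and 2.26 on the second.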

How the results depend on the processing

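At day 3 the median of 0.79 became 1.0 over spots with values on all 4 arrays and 1.59 in the brightest 25%, and the 30 calls became 8 at 4-fold. Between days the median of -1.32 became -1.72 in the brightest 25% and -0.80 with the day 10 sign turned, and the 32 calls became 8 at 4-fold. The day 10 median of -0.27 became -0.32 without centring, -0.33 with the spot of smallest array difference and -0.21 with the brightness trend removed, and lay from -0.33 to -0.27 with 1 array left out. The 0 calls at day 10 became 1 without centring, 3 with the spot of smallest array difference, 1 over spots with values on all 4 arrays, 7 at 1.5-fold and 1 on the mean alone, and 6 to 7 with 1 array left out. The large minus small subunit median at day 3 became -0.27 with the spot of smallest array difference, 0.11 over spots with values on all 4 arrays and -0.29 without paralogue forms and Rps19bp1. Between days it became 0.17 with the spot of smallest array difference, 0.021 without paralogue forms and 0.15 with the day 10 sign turned, and lay from -0.086 to 0.14 with 1 array left out. Of 971 recomputed values of the 34 named genes, 888 moved by no more than the SD between arrays, 83 by more, and 0 called values changed sign. Part of this was fixed in advance. With 1 of 2 arrays left out, a mean cannot move by more than their SD, and a called value cannot change sign. The median of 2 spots equals their mean. These counts are therefore no measure of stability. Each array pairs embryoid bodies with day 0, but the labels link no day 3 array to a day 10 array, so arrays were not paired across days. With 2 technical arrays of 1 RNA pair a day, the spread between cultures is unknown.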
